A study of Mus musculus with 12 samples.

Results

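The mu class glutathione transferases are the enzymes encoded in mouse by Gstm1 to Gstm7. They were followed here in liver RNA of mice with floxed p53 alleles that had received adenovirus and were then fasted or fed. The 7 genes were selected by name, with earlier results of these data known, and a gene was measured where a probe set of the array was annotated to it alone. That held for 6 of the 7 genes, each with 1 probe set, out of 22180 genes in all. Gstm5 was not analysed here, because its probe set also names the overlapping gene 4933431E20Rik.

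The study set acute loss of p53 in the liver against its control in both nutritional states. Each group held 3 arrays: Adeno-Cre fasted, Adeno-GFP fasted, Adeno-Cre fed and Adeno-GFP fed. All 12 samples came from 2 months old male C57Bl/6N mice with the floxed allele Trp53tm1Brn/J, kept on standard chow. Adenovirus carrying either Cre recombinase or green fluorescent protein (GFP) was injected into the tail vein at equal titres, and 3 days later food was withheld for 24 hours or left freely available. The control livers therefore carried floxed p53 too, and besides recombination, which occurs only in infected cells, the 2 injections also differed in which protein the virus carried. Trp53 has no probe set that names it alone and was not analysed here. Of 17 measured p53 targets, 3 were lower after Adeno-Cre in fasted livers and 3 in fed livers, among them in both diets Ccng1, the gene of cyclin G1, with log2 changes of -0.50 (adjusted p = 0.00986, limma) and -0.58 (adjusted p = 0.0135, limma). Without Adeno-GFP fed replicate 1 the count in fed livers was 1 and Ccng1 lost its call there (adjusted p = 0.0604, limma). The hepatocyte markers were bright, with a mean log2 level of 12.18 to 12.49 per array over 9 of 10 listed genes, against array medians of 6.26 to 6.33.

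Glutathione transferases join the thiol of glutathione to electrophilic compounds, which makes these more soluble and ready for export. The mu class enzymes are cytosolic, act as dimers of like or unlike mu subunits, and are among the abundant detoxifying proteins of rodent liver. Their genes lie next to each other in a cluster of close copies, and in rodents several of them are known to be induced by NRF2, the transcription factor that binds antioxidant response elements, and by drug-sensing nuclear receptors. Because the copies are alike in sequence, a probe of one gene may also bind RNA of another. How far this happened was not tested.

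Gstm3, Gstm6 and Gstm1 are the 3 members whose level fell with fasting after both viruses (values below), so the bases just upstream of their start sites are shown to compare how alike these promoters are. The sequences are from RefSeq on GRCm38.p6, 200 bases each, 5′ to 3′ on the gene's strand and ending at the base before the start. Capitals mark the CCAAT box (CCAAT, or ATTGG where it lies on the other strand) and the TATA box (TATAAA). Where RefSeq gives several starts, as for Gstm6 and Gstm1, 1 of them is shown.
Gstm3, chr3:107969175-107969374, minus strand: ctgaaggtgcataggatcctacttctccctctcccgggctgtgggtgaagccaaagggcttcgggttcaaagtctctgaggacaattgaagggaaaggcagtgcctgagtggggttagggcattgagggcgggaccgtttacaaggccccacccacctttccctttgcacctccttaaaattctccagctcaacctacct
Gstm6, chr3:107953467-107953666, minus strand: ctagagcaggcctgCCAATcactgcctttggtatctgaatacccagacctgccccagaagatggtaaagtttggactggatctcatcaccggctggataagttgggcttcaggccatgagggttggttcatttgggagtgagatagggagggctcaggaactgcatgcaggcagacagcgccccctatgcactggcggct
Gstm1, chr3:108017819-108018018, minus strand: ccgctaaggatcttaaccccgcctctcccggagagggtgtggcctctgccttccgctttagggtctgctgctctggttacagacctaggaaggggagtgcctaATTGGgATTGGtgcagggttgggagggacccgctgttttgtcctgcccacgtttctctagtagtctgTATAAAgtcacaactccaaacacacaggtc
The Gstm3 stretch held neither box, the Gstm6 stretch held 1 CCAAT box, and the Gstm1 stretch held 2 CCAAT boxes next to each other and a TATA box that begins 30 bases before the start. The boxes depend on the start shown. The stretch before the other Gstm1 start held neither box. Of the Gstm6 starts not shown, 1 had 2 CCAAT boxes in its stretch and 1 had neither box. Windows from 250 bases before to 50 bases after the start were then searched on both strands for all 7 genes, which have 12 such windows. The core of the antioxidant response element (TGACNNNGC) was found in 12.4% of all 32851 RefSeq promoter windows. Among the members it was found for Gstm5, 42 bases upstream, and in 1 window of Gstm7, 129 bases upstream, and in no window of Gstm1, Gstm2, Gstm3, Gstm4 or Gstm6. The FOXO core (GTAAACA, in 3.65% of windows), the E-box (CACGTG, in 7.15%), the HNF4 core (CAAAGTCCA, in 0.475%) and the p53 half-site (in 8.36%) were in no member's window. The sterol response element (TCACNCCAC, in 1.24% of windows) was in 1 window of Gstm7 and 1 of Gstm6. The CCAAT box was in 37.4% of all windows and the TATA box in 13.6%. No motif overlapped another in the 3 stretches shown. Between the 250 upstream bases of different members, the longest identical run was 6 to 13 bases over 60 pairs of windows. The run of 13 bases was between Gstm3 and another Gstm6 window than the one shown, and the stretch shown for Gstm6 shared at most 8 bases with the Gstm3 window. How often unrelated promoters share such runs was not tested.

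With fasting, the level of Gstm3 fell more than that of any other member. In Adeno-GFP livers the 3 fasted arrays had deposited log2 levels of 8.65, 8.14 and 8.47, against 10.78, 10.48 and 10.70 in the 3 fed arrays. Every fasted array lay below every fed one. The log2 change was -2.23 (SE 0.15, 95% interval -2.55 to -1.92, adjusted p = 1.89e-05 by limma with Benjamini-Hochberg adjustment over 22180 genes), which makes the fed level 4.71 times the fasted level. This was the 6th largest fall of all genes. In Adeno-Cre livers Gstm3 had 10.16, 10.05 and 10.44 in fasted arrays, against 11.03, 11.36 and 11.30 in fed arrays. These groups did not overlap either, and the log2 change was -1.01 (SE 0.15, 95% interval -1.33 to -0.70, adjusted p = 0.00483, limma), a fed level 2.02 times the fasted one. Leaving out each of the 12 arrays in turn gave changes of -2.35 to -2.09 after Adeno-GFP and -1.13 to -0.93 after Adeno-Cre, all past the threshold of an adjusted p under 0.05. The fasted arrays in these comparisons also entered the Gstm3 difference between viruses that was known when the genes were chosen. A low Adeno-GFP fasted level enlarges both that difference and the fall after Adeno-GFP. The p-values of Gstm3 with fasting are therefore not independent of that choice.

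Gstm6, a less studied mu class member, fell with fasting as well. In Adeno-GFP livers it had log2 levels of 7.42, 7.24 and 7.19 when fasted, against 8.12, 8.17 and 7.995 when fed, a change of -0.81 (SE 0.09, adjusted p = 0.000964, limma). In Adeno-Cre livers it had 7.19, 7.38 and 7.48 when fasted, against 7.72, 7.80 and 7.84 when fed, a change of -0.44 (SE 0.09, adjusted p = 0.0285, limma). The groups did not overlap in either comparison. The second call depended on single arrays: it was lost in 5 of 12 fits that left out 1 array, those without Adeno-Cre fasted replicate 1 or 2 or any of the 3 Adeno-Cre fed replicates, where the adjusted p reached 0.116. It was also lost with the replicate block, with all probe sets tested and with only the groups compared (adjusted p up to 0.0867).

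Gstm1, one of the main mu class subunits of rodent liver, had the smallest standard error of the 6 members. In Adeno-GFP livers it had 8.56, 8.59 and 8.61 when fasted, against 9.04, 9.14 and 8.97 when fed, a log2 change of -0.46 (SE 0.07, adjusted p = 0.00422, limma). In Adeno-Cre livers it had 8.71, 8.74 and 8.77 when fasted, against 9.13, 9.12 and 9.11 when fed, a change of -0.38 (SE 0.07, adjusted p = 0.0135, limma). Fasted and fed arrays were apart in both comparisons. After Adeno-Cre the call was lost without Adeno-Cre fasted replicate 1 (adjusted p = 0.0598), without Adeno-Cre fed replicate 1 (adjusted p = 0.0507) and with only the groups compared (adjusted p = 0.0631).

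Gstm2, which encodes another hepatic mu subunit, did not pass. In Adeno-GFP livers it had 8.43, 7.99 and 7.79 when fasted, against 8.57, 8.53 and 8.49 when fed. The groups did not overlap, but fasted replicate 1 lay close to the fed arrays, and the log2 change of -0.46 had an SE of 0.14 (adjusted p = 0.0995, limma). Without that replicate the change was -0.64 with an adjusted p of 0.0122. In Adeno-Cre livers Gstm2 had a change of -0.18 (adjusted p = 0.578, limma). Gstm4, at one end of the cluster, had log2 changes of -0.15 after Adeno-GFP (adjusted p = 0.630, limma) and -0.25 after Adeno-Cre (adjusted p = 0.377, limma). Gstm7 had log2 changes of -0.20 after Adeno-GFP (adjusted p = 0.320, limma) and -0.18 after Adeno-Cre (adjusted p = 0.380, limma). For both genes, fasted and fed arrays overlapped in both comparisons.

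Counted over the class, 3 of 6 members fell and 0 rose with fasting after each virus. Gstm3 is among the 3, and its fasted arrays also entered the difference known when the genes were chosen. The background share of genes called lower was 1.87% after Adeno-GFP and 1.17% after Adeno-Cre, and of genes called higher 1.2% and 1.5%. All 6 changes were negative after both viruses, with a median log2 change of -0.46 after Adeno-GFP, where the median of all genes was 0.01, and of -0.32 after Adeno-Cre, where it was 0.00. RNA was taken from whole liver, so fewer cells of a type and less RNA per cell cannot be told apart. The summed level of the 9 measured hepatocyte markers ran from 56780 to 60726 in Adeno-GFP fasted arrays, against 57865 to 58195 in Adeno-GFP fed arrays, and from 55948 to 56636 in Adeno-Cre fasted arrays, against 54001 to 56707 in Adeno-Cre fed arrays. Of these markers 1 rose and 0 fell with fasting after Adeno-GFP, and 0 passed after Adeno-Cre. Of the 12 sinusoidal endothelial cell markers 0 passed with fasting, but after Adeno-GFP 10 had negative changes (median -0.30), and their summed level was 4260 to 5667 on fasted arrays, against 5731 to 6022 on fed arrays, without overlap. After Adeno-Cre it was 4638 to 5140 on fasted arrays, against 3879 to 5583 on fed arrays. Of 12 stellate cell markers 1 fell with fasting after Adeno-GFP and 2 after Adeno-Cre. The summed level of 15 pericentral genes was 29757 to 32550 on Adeno-GFP fasted arrays, against 34727 to 36128 on fed arrays. After Adeno-Cre it was 25932 to 27287, against 28785 to 30780. That of 13 periportal genes was higher on fasted arrays, without overlap after either virus. Pericentral changes were negative for 11 genes after Adeno-GFP and 6 after Adeno-Cre. Of 12 Kupffer cell markers, 6 and 11 were negative, in the same order. The part of these cells or zones in the members' falls was not tested.

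**Figure D1:**
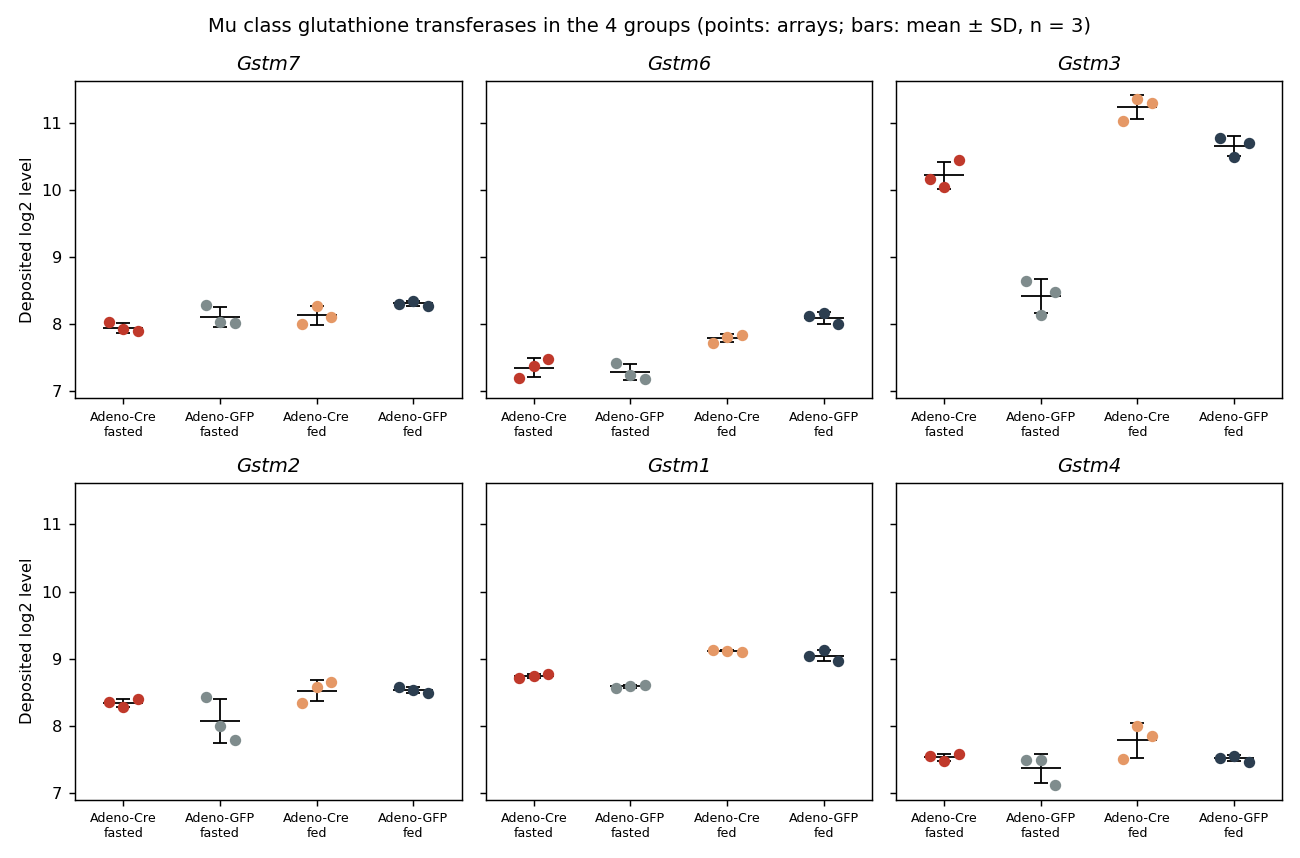
Deposited log2 levels (vertical axis) of the 6 measured mu class genes in the 4 groups (horizontal axis), 1 point per array, with the group mean as a long line and the SD as error bars (n = 3). Gstm3 spans 3.22 log2 units over the 12 arrays, with Adeno-GFP fasted livers lowest at 8.42 on average, while the other members span less than 1 unit. Levels of different genes come from different probes and are not to be set against each other.

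After Adeno-Cre, Gstm3 was the one member far from its control. In fasted livers it had 10.16, 10.05 and 10.44 on Adeno-Cre arrays, against 8.65, 8.14 and 8.47 on Adeno-GFP arrays. The groups were apart by more than 1 log2 unit at their nearest arrays. The difference of the means was 1.80 (SE 0.15, 95% interval 1.48 to 2.12), or 3.48-fold, the 45th largest rise of all genes. Because this difference was known when the genes were chosen, it is given as a description without a test. Left out in turn, single arrays moved it between 1.66 and 1.91.

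In fed livers Gstm3 had 11.03, 11.36 and 11.30 on Adeno-Cre arrays, against 10.78, 10.48 and 10.70 on Adeno-GFP arrays. These groups did not overlap, and the log2 change was 0.58 (SE 0.15, 95% interval 0.26 to 0.90, 1.49-fold), with an adjusted p of 0.084 by limma, which misses the threshold. It passed where genes under the median level were left out (adjusted p = 0.0406). Across the 4 groups Gstm3 averaged 10.22 ± 0.20 in Adeno-Cre fasted, 8.42 ± 0.26 in Adeno-GFP fasted, 11.23 ± 0.18 in Adeno-Cre fed and 10.65 ± 0.15 in Adeno-GFP fed livers (SD, n = 3 each). The order from high to low was thus Adeno-Cre fed, Adeno-GFP fed, Adeno-Cre fasted and Adeno-GFP fasted. The nearest neighbours in it were Adeno-Cre fasted, whose highest array was at 10.44, and Adeno-GFP fed, whose lowest array was at 10.48, a gap smaller than the SD of either group. That pair was not tested.

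The other 5 members did not pass in either diet. In fasted livers the log2 changes after Adeno-Cre were 0.15 for Gstm1 (adjusted p = 0.284), 0.28 for Gstm2 (adjusted p = 0.336), 0.17 for Gstm4 (adjusted p = 0.557), 0.07 for Gstm6 (adjusted p = 0.764) and -0.16 for Gstm7 (adjusted p = 0.413), all by limma. The 3 Gstm1 values of Adeno-Cre arrays, 8.71 to 8.77, lay above the 3 of Adeno-GFP arrays, 8.56 to 8.61, yet the 95% interval of its change, 0.00 to 0.30, reached down to almost no change. In fed livers Gstm6 had 7.72, 7.80 and 7.84 on Adeno-Cre arrays, against 8.12, 8.17 and 7.995 on Adeno-GFP arrays, a change of -0.30 (SE 0.09, 95% interval -0.51 to -0.10, adjusted p = 0.159, limma). So in fed livers Gstm6 and its neighbour Gstm3 had values on opposite sides of their controls, neither past the threshold. The remaining changes in fed livers were 0.27 for Gstm4, 0.07 for Gstm1, -0.01 for Gstm2 and -0.18 for Gstm7, with adjusted p between 0.430 and 0.994 (limma).

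Over the class, 1 member was higher and 0 lower in fasted livers, and 0 passed in fed livers. Gstm3, the 1 counted, is the gene known beforehand, and nothing is read from that count. The background shares of genes called higher and lower were 2.26% and 0.482% in fasted livers and 1.08% and 0.415% in fed livers. At an unadjusted p under 0.05 the fed comparison held 2 members, Gstm3 and Gstm6, and 2742 of all genes. The median change of the 6 members was 0.16 in fasted livers, where that of all genes was -0.03, and 0.03 in fed livers, where it was -0.02.

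Whether Adeno-Cre acted differently in the 2 diets was tested as a difference of changes, which equals the difference of the fasting change between the viruses. For Gstm3 this difference was 1.22 (SE 0.21), the 4th largest of all genes. It did not pass the threshold (adjusted p = 0.238, limma). The Gstm3 difference contains the change in fasted livers that was known beforehand, so nothing is read from its size or p-value. For Gstm6 the difference was 0.37 (SE 0.13, adjusted p = 0.608, limma), and for the other 4 members the adjusted p lay between 0.773 and 0.987. So 0 of these 5 members passed with limma, and 1, Gstm6, had an unadjusted p under 0.05, as did 1676 of all genes. The background shares were 0.00451% higher, a single gene, and 0% lower.

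**Figure D2:**
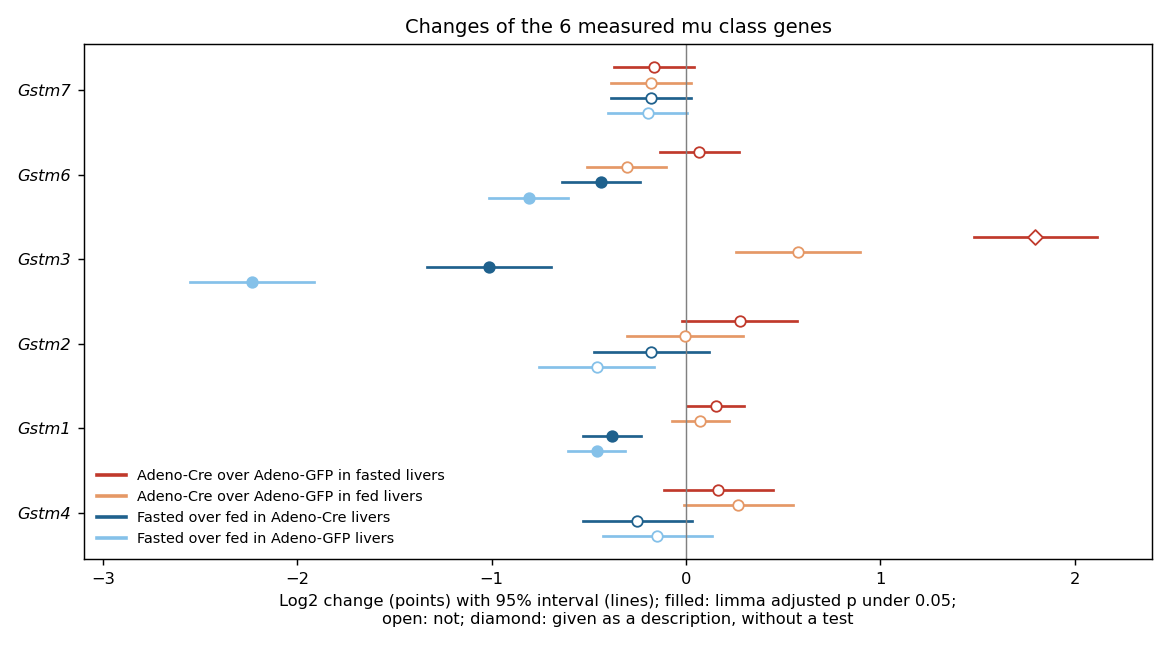
Log2 changes of the 6 measured mu class genes (horizontal axis) for Adeno-Cre over Adeno-GFP in each diet and for fasted over fed after each virus, as points with 95% intervals. Filled points have a limma adjusted p under 0.05, and the diamond is Gstm3 in fasted livers, given without a test. The fasting changes of all 6 genes lie left of 0, and the interval of Gstm3 in Adeno-GFP livers (-2.55 to -1.92) lies farthest out.

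Genes of cell division were counted beside Gstm3. Of 19 measured genes of that list, 19 were higher after Adeno-Cre in fasted livers (median log2 change 1.92) and 10 in fed livers (median 1.27), while with fasting 6 fell after Adeno-GFP (median -0.81) and 0 passed after Adeno-Cre (median -0.26). The count of 19 was 17 to 19 in all other settings. The count of 10 was 1 without Adeno-GFP fed replicate 3 and 16 without Adeno-GFP fasted replicate 2 or without dim genes, and the count of 6 was 1 without Adeno-GFP fed replicate 2 or with only the groups compared and 10 without Adeno-GFP fasted replicate 1. Among them was Top2a, the DNA topoisomerase of dividing cells, with a change of 2.42 after Adeno-Cre in fasted livers (SE 0.27, adjusted p = 0.000563, limma). The mean log2 level of the list was 8.65 to 9.06 on Adeno-Cre fasted arrays, against 6.59 to 7.53 on Adeno-GFP fasted arrays, and 9.01 to 9.08 on Adeno-Cre fed arrays, against 7.57 to 8.27 on Adeno-GFP fed arrays. The list was thus higher on Adeno-Cre fasted than on Adeno-GFP fed arrays. Gstm3 averaged 10.22 in Adeno-Cre fasted and 10.65 in Adeno-GFP fed livers, with the nearest arrays at 10.44 and 10.48. That pair of groups was not tested for the list or for Gstm3. Markers of other liver cells were counted too. Of 12 Kupffer cell and 12 sinusoidal endothelial cell markers, 0 passed in any comparison of viruses or diets. After Adeno-Cre, 12 Kupffer cell markers had negative changes in fasted livers (median -0.36) and 6 in fed livers (median -0.002). Of the endothelial markers, 7 were negative in fasted livers (median -0.05) and 12 in fed livers (median -0.30). The summed level of the Kupffer cell list was 2002 to 2961 on Adeno-Cre fasted arrays, against 2697 to 4597 on Adeno-GFP fasted arrays. That of the endothelial list was 4638 to 5140 on Adeno-Cre fasted arrays, against 4260 to 5667 on Adeno-GFP fasted arrays, and 3879 to 5583 on Adeno-Cre fed arrays, against 5731 to 6022 on Adeno-GFP fed arrays. Of 15 measured pericentral hepatocyte genes, 3 were lower after Adeno-Cre in each diet. That count was 0 in fasted livers if replicate 1 of either fasted group was left out, or with only the groups compared. In fed livers it was 0 without Adeno-Cre fed replicate 3, Adeno-GFP fed replicate 1 or 3 or with all probe sets tested, and 7 without dim genes. Changes were negative for 14 of the 15 in fasted livers (median -0.24) and for 15 in fed livers (median -0.35). Their summed level was 25932 to 27287 on Adeno-Cre fasted arrays, against 29757 to 32550 on Adeno-GFP fasted arrays. On Adeno-Cre fed arrays it was 28785 to 30780, against 34727 to 36128 on Adeno-GFP fed arrays. Of 13 measured periportal genes, 10 and 9 were negative, and their summed level was also lower without overlap in each diet. Of 12 stellate cell markers, 0 passed after Adeno-Cre in fasted livers and 1 was lower in fed livers. Negative changes numbered 12 in fasted and 11 in fed livers. Their summed level was 6165 to 7086 on Adeno-Cre fasted arrays, against 7331 to 7865 on Adeno-GFP fasted arrays. On Adeno-Cre fed arrays it was 5883 to 6940, against 7497 to 7887 on Adeno-GFP fed arrays. The summed hepatocyte marker levels given above were also lower after Adeno-Cre without overlap in each diet, with 0 markers past the threshold. Of 10 T and NK cell markers 1 was higher in each diet. Of 7 cholangiocyte, 4 B cell and 6 neutrophil markers, 0 passed after Adeno-Cre in either diet. The part of dividing cells, of other cell types or of zones in the Gstm3 values was not tested.

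Some members also varied together over the 12 arrays, which share the 4 groups, so the values describe the groups more than single samples. Pearson's r was 0.88 between Gstm1 and Gstm3, 0.86 between Gstm1 and Gstm6, 0.80 between Gstm2 and Gstm3 and 0.69 between Gstm3 and Gstm6. It was 0.21 between Gstm3 and Gstm7, the member whose probe set followed Gstm3 least. With the group means removed, r was -0.30, 0.39, 0.55, 0.42 and 0.45 for these pairs, in the same order. For the remaining pairs, r over the 12 arrays ran from 0.28 between Gstm4 and Gstm7 to 0.75 between Gstm2 and Gstm4. It was 0.40 between Gstm4 and Gstm6 and 0.42 between Gstm1 and Gstm7. Among 11084 genes above the median level, those most like Gstm3 over the 12 arrays were Gbe1, the glycogen branching enzyme (r = 0.962), C130026I21Rik (r = 0.961), Cyp2c70, a cytochrome P450 that makes muricholic acids in mice (r = 0.959), Gm2a, the activator protein of ganglioside breakdown in lysosomes (r = 0.955), and Fam111a, a nuclear protease (r = 0.954). These are descriptions over arrays that share their groups, with no test.

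The fall with fasting was compared with the genes beside the cluster. In RefSeq's order on chromosome 3 the class runs Gstm5, Gstm7, Gstm6, Gstm3, Gstm2, Gstm1 and Gstm4, with Gstm5 on the plus strand and the others on the minus strand. The 5 nearest measured genes on one side are Kcnc4, Slc6a17, Ubl4b, Ahcyl1 and Csf1, and on the other Ampd2, Gnat2, Gnai3, Gpr61 and Amigo1. Together with 4933431E20Rik inside the cluster, 0 of these 11 passed in any of the 5 comparisons by limma. The background share of calls was at most 2.26% in a direction, so 0 calls among 11 genes says little about them. At an unadjusted p under 0.05 there were 3 in fasted and 0 in fed livers for Adeno-Cre over Adeno-GFP, 2 and 1 with fasting after Adeno-Cre and after Adeno-GFP, and 1 for the difference. Among all 22180 genes these counts were 3711, 2742, 3542, 3698 and 1676, in the same order. Their fasting changes ran from -0.21 to 0.24 on the log2 scale after Adeno-GFP and from -0.28 to 0.18 after Adeno-Cre. The 3 genes that fell were not a single unbroken block, since Gstm2, which did not pass, lies between Gstm3 and Gstm1.

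**Figure D3:**
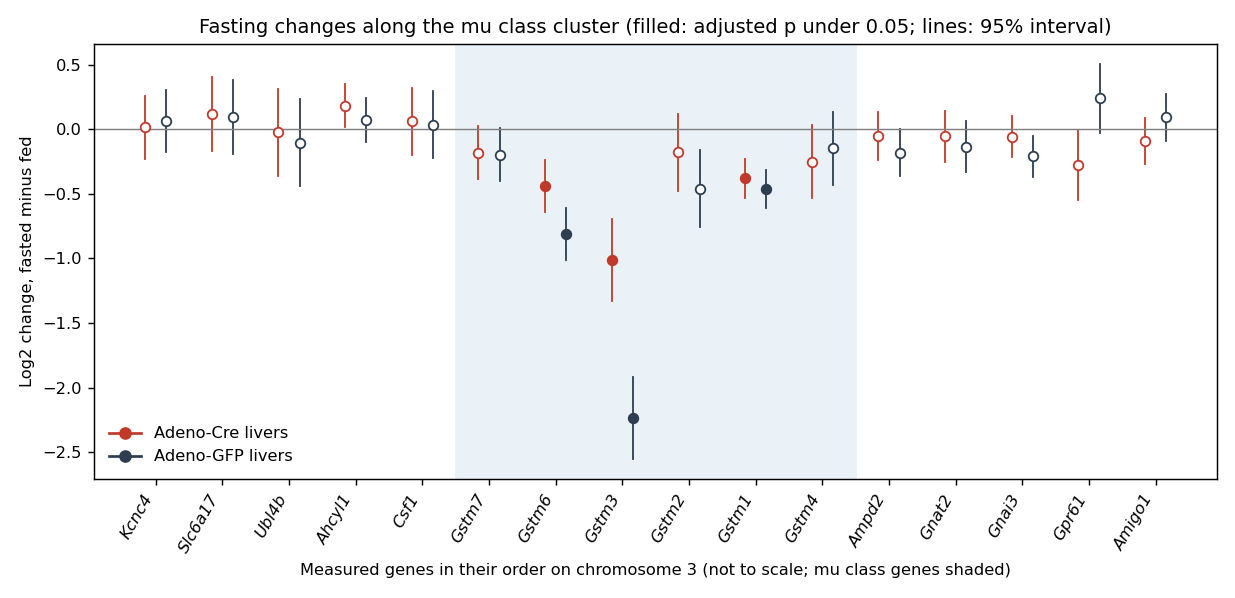
Log2 change with fasting (vertical axis) of the mu class genes (shaded) and the 5 nearest measured genes on each side, in their order on chromosome 3 and not to scale, after Adeno-Cre and Adeno-GFP. Points are estimates and lines 95% intervals, filled where the limma adjusted p is under 0.05. Gstm3 lies lowest, at -2.23 after Adeno-GFP, and the flanking genes lie between -0.28 and 0.24.

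Glutathione transferases of other classes did not share one direction. Of 16 measured genes, 1 rose and 2 fell with fasting after Adeno-GFP (median log2 change -0.18), and 4 rose and 1 fell after Adeno-Cre (median -0.07). Gsta4, an alpha class enzyme that handles the lipid peroxidation product 4-hydroxynonenal, averaged 10.65 ± 0.24 in Adeno-GFP fasted livers and 11.21 ± 0.13 in Adeno-GFP fed livers (SD, n = 3 each), a change of -0.57 (adjusted p = 0.0323, limma). The related Gsta3 changed by -0.39 (adjusted p = 0.0405, limma). In the opposite direction, the theta class gene Gstt3 rose by 0.60 after Adeno-GFP (adjusted p = 0.0362) and by 0.78 after Adeno-Cre (adjusted p = 0.0134), both by limma. Further rises after Adeno-Cre were 0.76 for Gstt2, 0.39 for Gsto1 of the omega class and 0.39 for the microsomal Mgst2, and Gstt4 fell by 0.48 (adjusted p between 0.0277 and 0.0385, limma). In fits that left out 1 array, 0 to 4 of this list were called higher after Adeno-Cre and 0 to 2 after Adeno-GFP, so none of these counts held throughout.

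**Figure D4:**
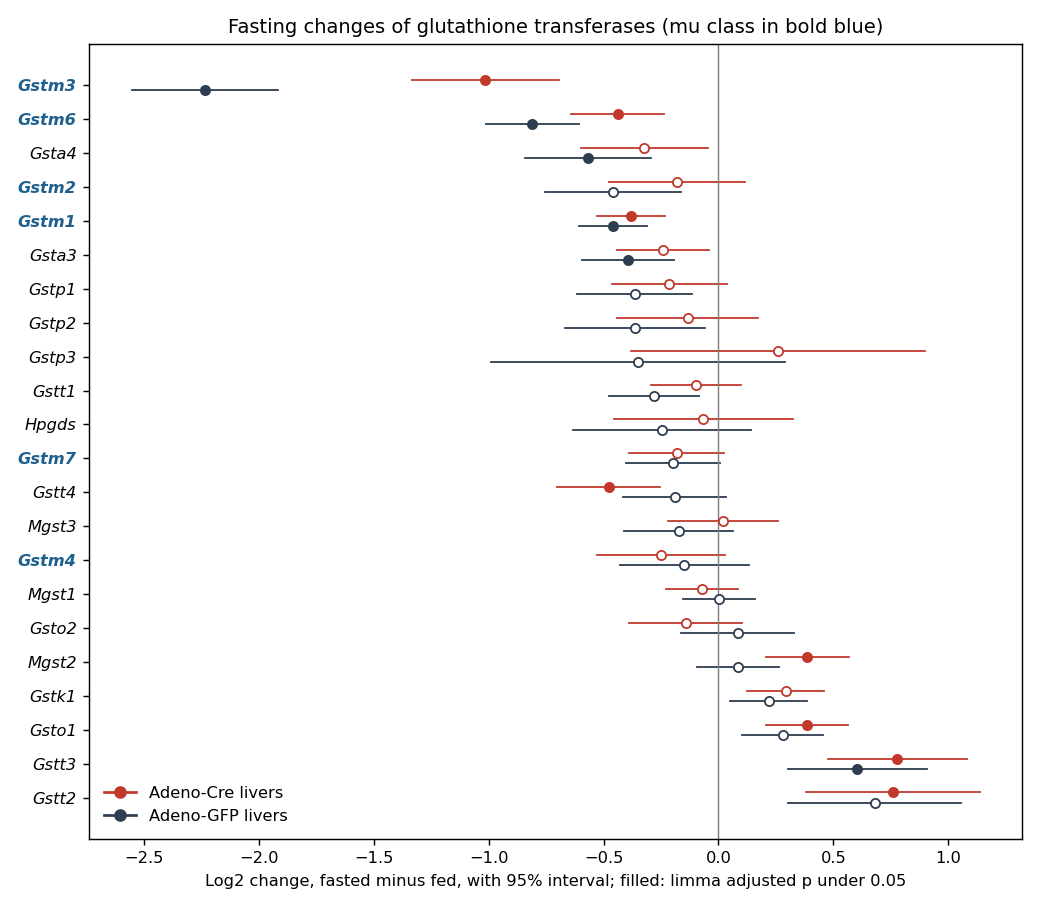
Log2 change with fasting (horizontal axis) of all measured glutathione transferases after Adeno-Cre and Adeno-GFP, with 95% intervals and filled points where the limma adjusted p is under 0.05. Mu class names are in bold blue. Gstm3 lies at the far left (-2.23 after Adeno-GFP), Gstm6 next, and the theta class genes Gstt3 and Gstt2 at the far right.

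After Adeno-Cre, 3 other transferases were higher in fasted livers and 0 lower, with a list median of 0.06, and 1 was higher in fed livers, with a median of -0.02. Mgst2, a microsomal enzyme with glutathione transferase and leukotriene C4 synthase activity, averaged 6.59 ± 0.10 in Adeno-Cre fasted livers and 5.80 ± 0.08 in Adeno-GFP fasted livers, a change of 0.79 (adjusted p = 0.000433, limma). Its change in fed livers was 0.49 (adjusted p = 0.0171, limma), a call lost in 4 of 12 fits that left out 1 array. Gstp3, a pi class gene, averaged 10.93 ± 0.22 in Adeno-Cre fasted livers and 9.60 ± 0.81 in Adeno-GFP fasted livers (SD, n = 3 each). Its change was 1.32 (adjusted p = 0.0329, limma). The SD of the Adeno-GFP fasted arrays was several times that of the Adeno-Cre ones, and the call was lost in 4 of 12 fits that left out 1 array. The third, Mgst3, changed by 0.46 (adjusted p = 0.0453, limma) and passed in 1 of those 12 fits.

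Genes of the supply and use of glutathione were counted next. Of 17 measured genes of glutathione synthesis and turnover, 2 rose and 1 fell with fasting after Adeno-GFP, and 3 rose and 0 fell after Adeno-Cre. Cth, cystathionine gamma-lyase, which supplies cysteine, rose by 0.65 after Adeno-GFP (adjusted p = 0.018) and by 0.82 after Adeno-Cre (adjusted p = 0.00616), both by limma. Glrx, a glutaredoxin that uses glutathione to reduce proteins, rose by 0.65 (adjusted p = 0.00211) and 0.57 (adjusted p = 0.00551) in the same comparisons. Chac2, which degrades glutathione, fell by 0.36 after Adeno-GFP (adjusted p = 0.0188, limma). With Adeno-Cre, 0 genes of this list passed in fasted livers, and 1 was lower in fed livers, Cbs, which makes cystathionine, at -0.51 (adjusted p = 0.0364, limma). Gclc, the catalytic subunit of the rate-limiting ligase, had changes of 0.37 in fasted livers (adjusted p = 0.0848) and 0.31 in fed livers (adjusted p = 0.206) by limma. Of 9 measured genes of conjugate export and mercapturate formation, 0 passed after Adeno-Cre in fasted livers and 2 were lower in fed livers, among them Abcc3, an exporter of conjugates, at -0.52 (adjusted p = 0.0345, limma). With fasting, Abcc3 rose by 0.52 after Adeno-Cre (adjusted p = 0.0244) and Nat8, the acetylase of mercapturates, fell by 0.99 after Adeno-GFP (adjusted p = 0.0131), both by limma. The calls of Glrx after both viruses and of Cth after Adeno-Cre held in all 12 fits that left out 1 array, and each of the other calls in this paragraph was lost in at least 1 of them.

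Genes known as NRF2 targets or partners were set beside the class, since several mu class genes are among its known targets. Of 22 measured, 5 fell and 1 rose with fasting after Adeno-GFP (median log2 change -0.23), and 2 fell and 0 rose after Adeno-Cre (median -0.22). Fasting changes were negative for 16 of the 22 after Adeno-GFP and for 19 after Adeno-Cre. The count of 5 was 7 without dim genes and 2 when either Adeno-GFP fasted replicate 3 or Adeno-GFP fed replicate 2 was left out. The count of 2 was 4 without Adeno-Cre fasted replicate 3 and 6 with another variance prior. The malic enzyme Me1, which makes NADPH, averaged 10.06 ± 0.14 in Adeno-GFP fasted livers and 11.18 ± 0.05 in Adeno-GFP fed livers, a change of -1.12 (adjusted p = 0.000149, limma), and after Adeno-Cre its change was -0.75 (adjusted p = 0.00333, limma). Pgd, of the pentose phosphate pathway, fell with fasting after Adeno-Cre by 0.61 (adjusted p = 0.008, limma). Both are also genes of NADPH supply for fat synthesis, and Gsta4 stands on this list too. After Adeno-Cre, 4 of the 22 were higher and 0 lower in fasted livers (median 0.09), and 1 was higher in fed livers (median 0.16). Nqo1, the quinone reductase, averaged 8.54 ± 0.10 in Adeno-Cre fasted livers and 7.86 ± 0.29 in Adeno-GFP fasted livers (SD, n = 3 each), a change of 0.68 (adjusted p = 0.0184, limma). Me1 and Pgd were each higher by 0.56 (adjusted p = 0.00847 and 0.00803, limma) and Ugdh, which makes UDP-glucuronate, by 0.48 (adjusted p = 0.0246, limma). Me1 and Pgd passed here in 12 of 12 fits that left out 1 array, Nqo1 in 10 and Ugdh in 8, and with only the groups compared 0 of these 4 passed. The level of Nfe2l2, the gene of NRF2 itself, passed in none of the 4 comparisons by limma. With fasting after Adeno-GFP it averaged 10.69 ± 0.04 in fasted livers and 11.02 ± 0.07 in fed livers (SD, n = 3 each), without overlap, a change of -0.32 (SE 0.10, adjusted p = 0.105, limma). With fasting after Adeno-Cre its change was -0.03 (adjusted p = 0.915, limma). After Adeno-Cre it was 0.07 in fasted livers (adjusted p = 0.751, limma) and -0.22 in fed livers, where the groups did not overlap (adjusted p = 0.386, limma).

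Of 16 measured genes that respond to the drug-sensing receptors CAR and PXR, 0 rose and 2 fell with fasting after Adeno-GFP and 4 rose and 0 fell after Adeno-Cre. Fasting changes were positive for 12 of the 16 and negative for 4 after each virus. Their median log2 change was 0.22 after Adeno-GFP and 0.29 after Adeno-Cre. The count of 4 was 0 without Adeno-Cre fed replicate 3 or with all probe sets tested, and the count of 2 was 1 without Adeno-GFP fasted replicate 1 or 3 or Adeno-GFP fed replicate 1. After Adeno-Cre, 1 was higher and 1 lower in fasted livers (median -0.02), and 0 were higher and 3 lower in fed livers (median -0.19). In fasted livers the count of 1 lower was 1 in all other settings, and that of 1 higher was 0 to 2. Cyp2c54, also on this list, averaged 10.68 ± 0.03 in Adeno-Cre fasted and 11.35 ± 0.14 in Adeno-GFP fasted livers (SD, n = 3 each). The count of 3 was 0 in 5 fits that left out 1 array, namely Adeno-Cre fed replicate 2 or 3 or 1 array of the Adeno-GFP fed group. Cyp2c55, a cytochrome P450 inducible by both receptors, averaged 8.38 ± 0.71 in Adeno-Cre fasted livers and 6.81 ± 0.62 in Adeno-GFP fasted livers (SD, n = 3 each), a change of 1.57 (SE 0.33, adjusted p = 0.0256, limma). With fasting after Adeno-GFP it changed by -2.49 (adjusted p = 0.00237, limma). The classical CAR target Cyp2b10 rose with fasting after Adeno-Cre, by 1.55 (adjusted p = 0.0178, limma), a call lost without Adeno-Cre fasted replicate 2 or Adeno-Cre fed replicate 2 or 3 (adjusted p up to 0.0658), with all probe sets tested and with only the groups compared. The Cyp2c55 call in fasted livers was lost in 4 of 12 fits that left out 1 array and where the probe sets of a gene were averaged.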

How the data were processed

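Per the labels' protocols, 12 liver samples were labelled from 200 ng of RNA each and measured on Affymetrix arrays. The authors deposited a log2 level per probe set, summarised by RMA according to the submitters' processing notes. Its software, probe annotation and build are not stated there or in the labels. RMA equalises the arrays' distributions and compresses changes of dim probe sets. The number of arrays limits the precision, and depth does not apply. The table holds 41345 probe sets, of which 23521 name 1 gene, 1814 several and 16010 none listed; the brightest per gene over 12 arrays was kept, which gave 22180 genes.

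Groups were taken from the labels. With limma 3.58.1 under R 4.3.3, 1 model with group means was fitted over all arrays and moderated by eBayes, with 5 contrasts and Benjamini-Hochberg adjustment over all genes within each, at a threshold of 0.05. Nothing says that the 3 samples of a group came from separate animals, so p-values measure only the spread between these samples, which may be technical. The fit was tested on simulated data. Members and gene lists were chosen with earlier results of these data known. Named were all members, up to 4 genes per list past the threshold with the smallest p, the flanking genes and the 5 genes most like Gstm3; Top2a, Ccng1, Gclc, Nfe2l2 and further list genes were named after their values were seen. Promoter windows came from RefSeq, searched in Python 3.11.15 (pandas 2.3.3, matplotlib 3.10.9). Alternatives left out dim genes, renormalised, subtracted array medians, added a replicate block, changed the variance prior, weighted arrays, averaged or kept all probe sets, fitted only the groups compared, and left out each array; recounting the gene lists under them was added after seeing the data.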

Additional observations from a re-analysis of the deposited data

How the results depend on the processing

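Of the member results, the fasting falls of Gstm3 after both viruses and those of Gstm1 and Gstm6 after Adeno-GFP kept their direction and their side of the threshold in all 12 fits that left out 1 array and in 9 other settings. The number of members past the threshold with fasting after Adeno-Cre was 3, was 1 with only the groups compared, and ran from 1 (without Adeno-Cre fasted replicate 1 or Adeno-Cre fed replicate 1) to 3 with 1 array left out. For Adeno-Cre over Adeno-GFP in fed livers it was 0, and 1 where genes under the median level were left out. With the replicate block, 2 members passed with fasting after Adeno-Cre and 3 after Adeno-GFP, Gstm6 losing its call after Adeno-Cre (adjusted p = 0.0516, limma) and no other member's call changing. Residuals of arrays with the same number correlated at -0.09 to 0.15, so the numbers were not taken to pair the samples. Changes near 0 turned sign: Gstm2 in fed livers, -0.01, was 0.0032 with array medians subtracted and -0.067 to 0.083 with 1 array left out; the difference for Gstm7, 0.02, was -0.023 after quantile normalisation and -0.048 to 0.10 with 1 array left out; that for Gstm4, -0.10, was -0.24 to 0.0074. The number of all genes past the threshold, which sets the adjusted p of the members, moved most in fed livers, where 331 for Adeno-Cre over Adeno-GFP was 31 without Adeno-GFP fed replicate 3, 91 with all probe sets tested and 606 without dim genes. It was 609 in fasted livers (320 to 940 over all settings), 592 with fasting after Adeno-Cre (207 to 1049), 682 after Adeno-GFP (275 to 1160) and 1 for the difference (0 to 1), a contrast for which the fit with only the groups compared was not run. The causes were not tested.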
